A study of Mus musculus with 9 samples.

Results

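Forkhead genes encode the Fox transcription factors, and they were followed here in the lambdoidal junction, where the facial prominences that build the upper lip and primary palate meet. Every protein-coding gene of the deposited table whose symbol is Fox, a subfamily letter from a to s and a number was taken, which gave 44 genes among 22046 protein-coding genes and 54532 genes in all. The mice were C57BL/6J, and each library was made from pooled embryos of 1 stage, 3 libraries for each of the stages E10.5 (embryonic day 10.5), E11.5 and E12.5. No mutant or treated group is involved, so a stage is the only thing that differs by design, and the whole tissue was used, with epithelium, mesenchyme, vessels and nerves together. The total count per library was between 16581009 and 20836804. Each library is a pool of its own by the study's methods, and the p-values measure the spread between these pools.

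Fox proteins share a winged-helix domain, the forkhead box, that binds DNA, and the letters mark subfamilies with related domains. In the early face, members of the c, d, f and l subfamilies are known from neural crest derived mesenchyme, where Foxf1 and Foxf2 act downstream of Hedgehog signals from the epithelium. Foxe1 and the i subfamily are known from epithelium and placodes, and the k, m, o and p subfamilies from many tissues, where they act in the cell cycle, metabolism and differentiation. In bulk tissue, fewer cells of a type and less RNA per cell cannot be told apart.

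Transcripts per length were compared first. RPKM, a count scaled to the library size and to the deposited gene length in kilobases, allows levels of different genes to be set side by side. Foxp4, a repressor of the p subfamily, was the highest, with 63.0, 62.7 and 34.4 RPKM in libraries 1, 2 and 3 at E10.5, 37.2, 47.6 and 42.9 at E11.5 and 36.5, 31.4 and 25.8 at E12.5. The E11.5 libraries of Foxp4 lay within the E10.5 range and those of E12.5 within it or below it, with library 3 apart from the other two at E10.5. Foxk2, a regulator of metabolism that binds many promoters, followed with 35.7–38.7 RPKM at the earliest stage, then 35.7–36.8 and 24.7–32.5. The E12.5 libraries of Foxk2 were all below those of the earlier stages. The mitotic regulator Foxm1 had 21.0–31.7, 25.7–26.9 and 13.2–20.2 RPKM at the 3 stages, Foxo4, a target of insulin signalling, 17.4–22.5, 19.4–24.4 and 18.4–22.5, and Foxf1, a mesenchymal factor, 5.03–15.6, 14.4–17.9 and 9.46–13.8.

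**Figure D1:**
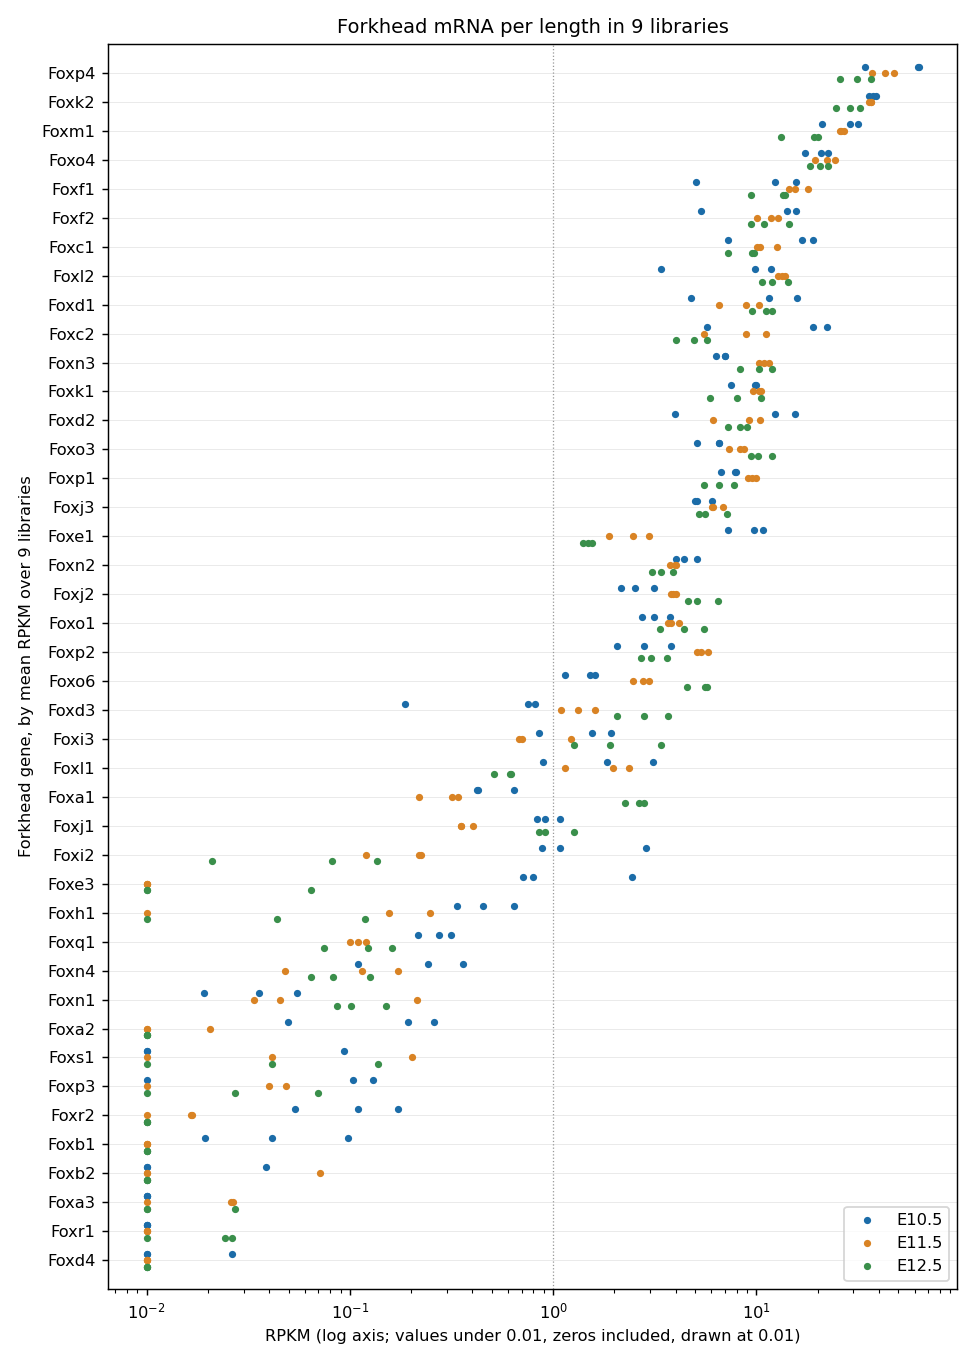
RPKM (log axis) of 42 forkhead genes with at least 1 count in a library, ordered by their mean, with a point for each library and a color for each stage. Foxp4, Foxk2, Foxm1 and Foxo4 led at every stage, 27, 25 and 27 genes had a stage mean above 1 RPKM at the 3 stages in turn, and Foxi1 (no counts) is not drawn.

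The summed RPKM of all 44 genes was 304 ± 66.4 (SD, n = 3), 282 ± 17.5 and 245 ± 28.4 at the 3 stages in turn. The stages overlapped in this sum (227–348, 262–294 and 212–262). At the other end, Foxi1 had no count in any library, and Foxa3, Foxb2, Foxd4 and Foxr1 never had more than 3 counts in any library, which was treated as the limit of detection. In all, 29 of the 44 genes were tested in all 3 pairwise comparisons, Foxe3, Foxi2 and Foxn4 in some of them, and 12 in none because their counts were too low. These 12 were Foxa2, Foxa3, Foxb1, Foxb2, Foxd4, Foxh1, Foxi1, Foxn1, Foxp3, Foxr1, Foxr2 and Foxs1. The counts of genes called do not include them.

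E10.5 library 3 stood apart from libraries 1 and 2 before any comparison was made. Levels within a gene are given as CPM, counts scaled to a common library size after TMM normalization. Over 16363 genes, the deviation of a gene in this library from its mean in libraries 1 and 2 ran with GC content (Spearman's rho across genes −0.55). Libraries 1 and 2, each set against the other E10.5 libraries in the same way, gave 0.44 and 0.47. Library 3 is part of their reference, so these values are not independent of its own. Forkhead genes are GC-rich, with a median exon GC content of 56.1% against 48.7% for protein-coding genes, and 33 of the 44 lay above the 75th percentile. Of 32 forkhead genes that passed the count filter over all 9 libraries and had at least 30 counts at E10.5 in all and at least 1 in each of these libraries, 22 were lower in library 3 than in both others and 8 were higher. For 10 of them library 3 was below 1/2 of each of the others. The same counts over all genes are not given here, so they do not set forkhead genes apart from other GC-rich genes. These were Foxc1, Foxc2, Foxd1, Foxd2, Foxd3, Foxf1, Foxf2, Foxl1, Foxl2 and Foxn4, with library 3 at 0.236–0.408 times the mean of the other two. After the trend with GC content was removed from each library, the same 10 genes were at 0.413–0.523 times that mean, whereas Foxp4 went from 0.547 to 0.904 times. Foxi2 was higher in library 3, by 2.90 times before and 3.64 times after removal.

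**Figure D2:**
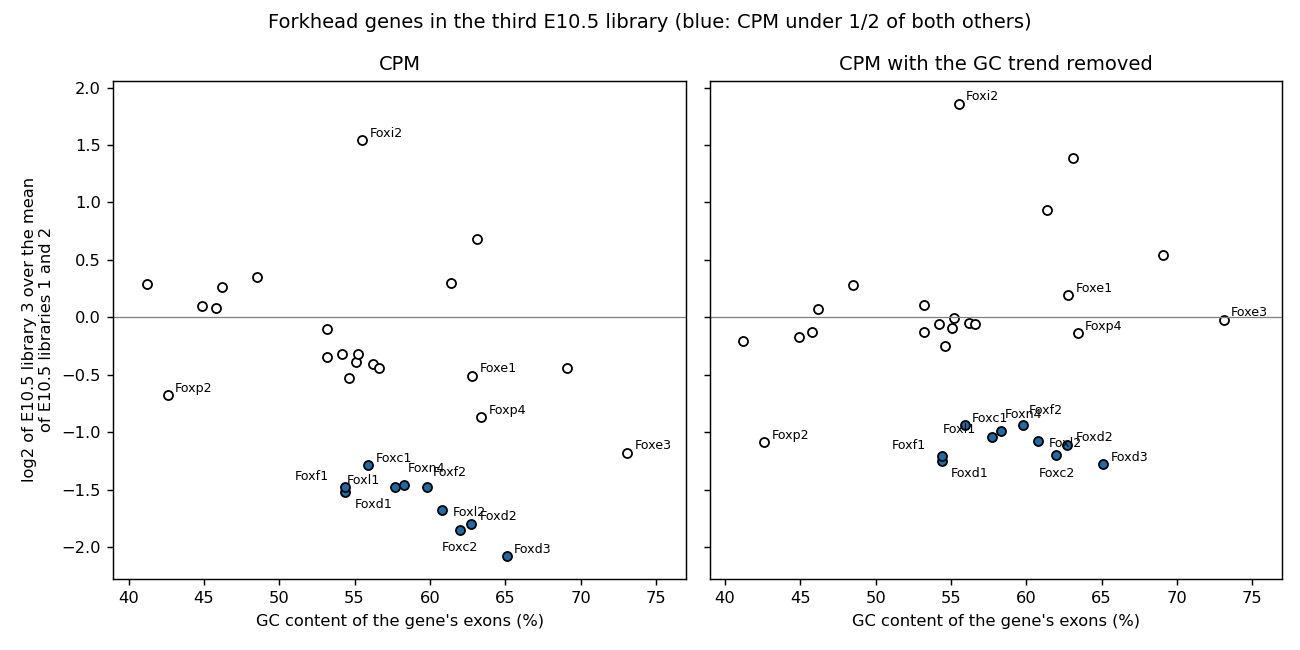
Ratio of E10.5 library 3 to the mean of E10.5 libraries 1 and 2 (log2) for 31 of these forkhead genes against the GC content of their exons, from CPM (left) and after the GC trend of each library was removed (right). The 10 genes in blue stayed low on the right, between 0.413 and 0.523 times, and Foxi2 stayed high.

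Markers in the same library also differed. The summed CPM of 8 facial mesenchyme markers was 1130 in library 3 against 1890 and 1900 in libraries 1 and 2, that of 9 endothelial and mural markers was 115 against 289 and 285, that of 9 surface epithelium markers was 734 against 424 and 473, and that of 11 forebrain and eye markers was 352 against 297 and 251. The 10 genes named above were lower in library 3, as were the mesenchyme and vessel sums, though Foxn4 among them is known from retina and spinal cord. Foxi2 was higher, as were the epithelial and forebrain sums. Other genes known from epithelium went both ways before the GC trend was removed. Foxi3 was at 1.60 times the mean of libraries 1 and 2, but Foxe1 was at 0.703, Foxq1 at 0.736 and Foxa1 at 0.802 times. After removal Foxi3 was at 2.62, Foxe1 at 1.14, Foxq1 at 0.96 and Foxa1 at 0.96 times. The part of these tissues in the results below was not tested, and the counts are given with and without this library.

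Each pair of stages was then compared with edgeR's quasi-likelihood test. A call, upregulated or downregulated, needed an adjusted p (Benjamini-Hochberg over all genes tested) no higher than 0.05 together with a log2 fold change of 1 or more in size. From E10.5 to E11.5, 6 of 32 forkhead genes tested fell and 0 rose (none rose with DESeq2, and 7 of the 32 had a positive fold change with an unadjusted p below 0.05). With the GC trend removed 2 rose, Foxd3 and Foxo6, and the same number rose without E10.5 library 1, Foxo6 and Foxp2, and with no fold-change threshold 3 rose, Foxn3, Foxo6 and Foxp2. In these settings 4.06%, 3.54% and 6.19% of all genes rose in turn. Among all 15708 genes of the main test, 2.61% fell and 3.46% rose. Foxe3, Foxi2 and Foxq1, among the 6 that fell, passed the count filter through their E10.5 libraries. From E11.5 to E12.5, 3 of 29 rose and 1 fell, against 4.14% and 0.962% of 15808 genes. From E10.5 to E12.5, 4 of 30 rose and 5 fell, against 9.97% and 5.08% of 15899 genes. The median log2 fold change of the forkhead genes tested was −0.10, −0.10 and 0.00 in the 3 comparisons, beside −0.03, 0.02 and −0.01 over all genes. Without E10.5 library 3, 7 fell and 0 rose from E10.5 to E11.5, and 3 rose and 9 fell from E10.5 to E12.5. Of all genes in this setting, 5.04% fell and 4.75% rose to E11.5, and 10.4% rose and 6.23% fell to E12.5. Without E11.5 library 1, 2 or 3 the count called in the first interval was 2, 3 and 2 in turn, and in the second interval it was 2 without E12.5 library 1 and 6 without E12.5 library 3. Of all genes, 0.996%, 1.59% and 1.15% fell and 1.45%, 2.5% and 1.65% rose in the first interval in turn. In the second, 2.64% rose and 0.526% fell without E12.5 library 1, and 3.89% rose and 0.739% fell without E12.5 library 3.

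**Figure D3:**
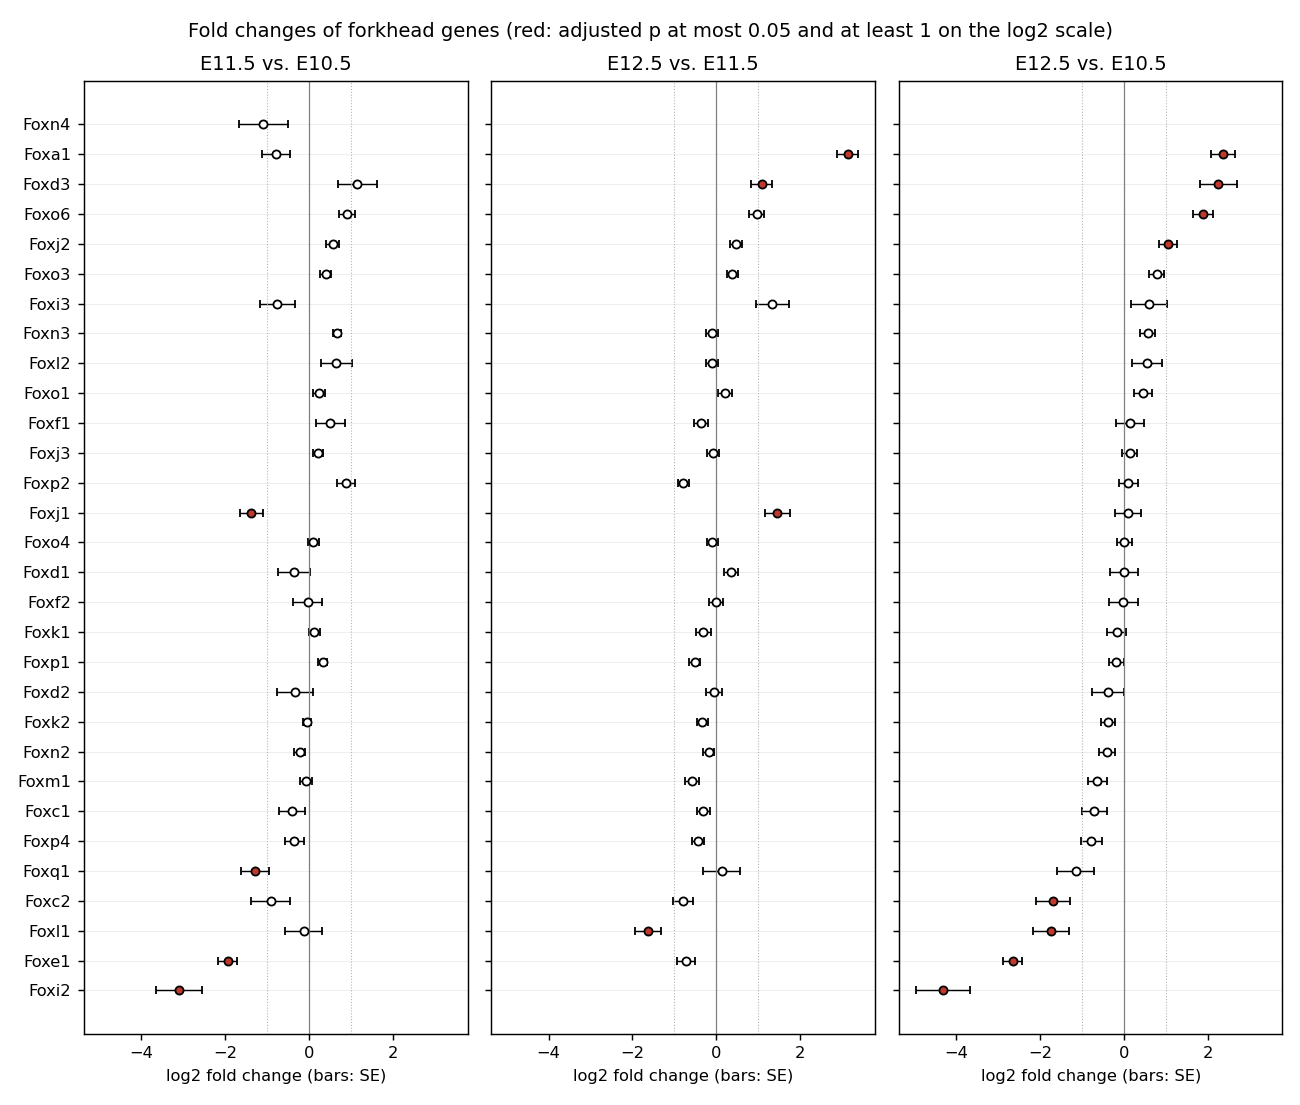
Log2 fold change with SE of 30 forkhead genes tested in the 3 comparisons, ordered by E12.5 vs. E10.5, with red points for genes that were called. Foxe3 is left out because it had no counts at E11.5. Foxe1 and Foxi2 lie at the lower end of both comparisons with E10.5, and Foxa1 is the highest in both comparisons with E12.5.

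Foxe1, Foxi2 and Foxe3, known from oral epithelium, placodes and lens, were among the 6 genes that fell in the first interval. Foxe1, the thyroid and palate factor whose loss causes cleft palate (chr4:46343609-46346412, + strand, GRCm38), had 27.4, 30.2 and 20.2 CPM at E10.5, 5.29, 8.30 and 6.95 at E11.5 and 4.33, 3.95 and 4.15 at E12.5. The 3 stages did not overlap. It fell by 1.94 ± 0.22 on the log2 scale to E11.5 (SE, adjusted p = 0.00227) and by 2.65 ± 0.23 to E12.5 (adjusted p = 2.2e-05). The second interval alone gave −0.72 ± 0.21 with an adjusted p of 0.0497, which is under the fold-change threshold. Foxe1 stayed downregulated from E10.5 to E11.5 in each of the 16 alternatives.

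Foxi2, an ectodermal factor related to otic and placodal Foxi genes (chr7:135410308-135413622, + strand), had 2.34, 2.88 and 7.58 CPM at E10.5, 0.594, 0.582 and 0.318 at E11.5 and 0.0556, 0.216 and 0.361 at E12.5. These are 40, 50 and 123 counts against 11, 12 and 6 and then 1, 4 and 6. All E10.5 libraries were above the later ones, and those of E11.5 and E12.5 overlapped. The log2 fold change was −3.09 ± 0.55 (adjusted p = 0.0112) to E11.5 and −4.31 ± 0.64 (adjusted p = 0.000765) to E12.5. Foxi2 was too low for a test from E11.5 to E12.5, so it entered both of these tests through its E10.5 libraries. The call to E11.5 was lost when E11.5 library 1 or 3 was left out, and over the 15 alternatives the log2 fold change was between −3.38 and −2.39.

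Its relatives behaved unequally. Foxi3, which acts in the ectoderm of teeth, hair and pharyngeal arches, had 1.99, 1.09 and 2.46 CPM at E10.5, 1.57, 0.874 and 0.902 at E11.5 and 2.45, 4.33 and 1.62 at E12.5. The E12.5 libraries were above those of E11.5, but the change missed the threshold (1.34 ± 0.40, adjusted p = 0.0541), and it was called under 5 of 16 alternatives. Foxi1 was at 0 in all 9 libraries.

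Foxe3, the lens factor next to Foxd2 (chr4:114925147-114926013, − strand), had 36, 12 and 10 counts at E10.5, none at E11.5 and 1, 0 and 0 at E12.5. Its mean of 1.14 CPM at E10.5 exceeded the E11.5 level at least 7.32-fold, since 3 counts per library there would be 0.156 CPM (adjusted p = 0.0197). Foxe3 passed the count filter through its E10.5 libraries alone. With no counts at E11.5, the test could only give a fall. The 58 counts at E10.5 against 1 at E12.5 gave a ratio of 57.2 per total count, with a 95% interval of 9.87–2300 that covers counting error only. Leaving out any E11.5 library took the call away.

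RefSeq promoters (GRCm38.p6) are shown for the genes called in a comparison where the table held one and its first bases lay outside any exon, so that the sequences of early and late genes can be read side by side. Those of the declining Foxi2 and Foxe3, 5′ to 3′ and ending at or near the start of transcription, are given with each CG dinucleotide in capitals.
Foxi2 (chr7:135410117-135410307, + strand): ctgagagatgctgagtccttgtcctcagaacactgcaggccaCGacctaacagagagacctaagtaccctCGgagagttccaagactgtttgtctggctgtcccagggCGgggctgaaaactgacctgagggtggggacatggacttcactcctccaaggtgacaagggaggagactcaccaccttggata
Foxe3 (chr4:114926068-114926317, − strand): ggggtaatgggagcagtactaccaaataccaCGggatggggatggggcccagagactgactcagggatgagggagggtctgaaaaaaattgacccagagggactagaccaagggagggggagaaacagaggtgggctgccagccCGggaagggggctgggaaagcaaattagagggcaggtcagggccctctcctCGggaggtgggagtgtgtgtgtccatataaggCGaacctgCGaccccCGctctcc
The Foxi2 stretch of 191 bases held 3 CG dinucleotides and the Foxe3 stretch of 250 bases held 6. Over 32851 RefSeq promoters, the median was 6 CG in the 250 bases before the start, and over 33 promoters of the 28 forkhead genes in that table it was 16.0.

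Several genes too low for a test also had their counts mostly at E10.5. Foxa2, the floor plate and endoderm factor, had 2, 8 and 10 counts at E10.5, 0, 1 and 0 at E11.5 and none at E12.5, so its E10.5 mean of 0.398 CPM was at least 2.34-fold above the E12.5 limit. Foxr2 had 6, 3 and 9, then 1, 0 and 1, then no counts (at least 2.12-fold). Foxb1, a hypothalamic factor, had 5, 1 and 2 counts at E10.5 and none later. Its mean count at E10.5 was under 3, so no such limit is given for it. Foxh1, a partner of Nodal-activated Smads, had 15, 8 and 10 counts, then 0, 7 and 4, then 0, 3 and 1. When every gene with at least 1 count was tested, or with DESeq2, Foxa2, Foxe3, Foxh1 and Foxr2 were called as well from E10.5 to E12.5. Foxn4, known from retina and spinal cord, had 14, 21 and 6 counts, then 3, 8 and 11, then 5, 4 and 7, and did not pass the test from E10.5 to E11.5 (−1.09 ± 0.58, adjusted p = 0.266).

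Of 11 forebrain and eye markers, 8 were downregulated from E10.5 to E11.5, among them Sox1 (−6.22 ± 0.41, adjusted p = 0.000723) and Rax (−7.42 ± 1.07, adjusted p = 0.00542), whereas Six3, Fezf2 and Emx2 were not called. Over both intervals 6 fell and Emx2 rose (2.06 ± 0.22, adjusted p = 7.36e-05). Their summed CPM was 251–352, 91.9–97.6 and 122–157 at the 3 stages in turn. Otp was at 0 in all E11.5 libraries. Of 8 markers of pharyngeal endoderm and pituitary, 2 fell and 1 rose in that interval (summed CPM 214–263, then 210–217), and of 9 olfactory markers 3 fell and 1 rose (334–400, then 252–279). The part of these tissues in the decline of Foxe1, Foxi2 and Foxe3 was not tested.

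Foxq1 and Foxj1 also fell in the first interval. Foxq1, an epithelial factor at one end of the Foxq1, Foxf2 and Foxc1 cluster on chromosome 13, had 1.52, 1.32 and 1.05 CPM at E10.5, 0.486, 0.582 and 0.531 at E11.5 and 0.778, 0.595 and 0.361 at E12.5. The E10.5 libraries were above all others, and the fold change was −1.29 ± 0.33 (adjusted p = 0.0431). With 9, 12 and 10 counts at E11.5, Foxq1 passed the count filter of this comparison through its E10.5 libraries. It was called in only 4 of 15 alternatives, and 66.1% of its exon sequence overlaps the antisense gene A530084C06Rik, so without knowing whether strand was used in counting its reads cannot be told from those of that gene.

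**Figure D4:**
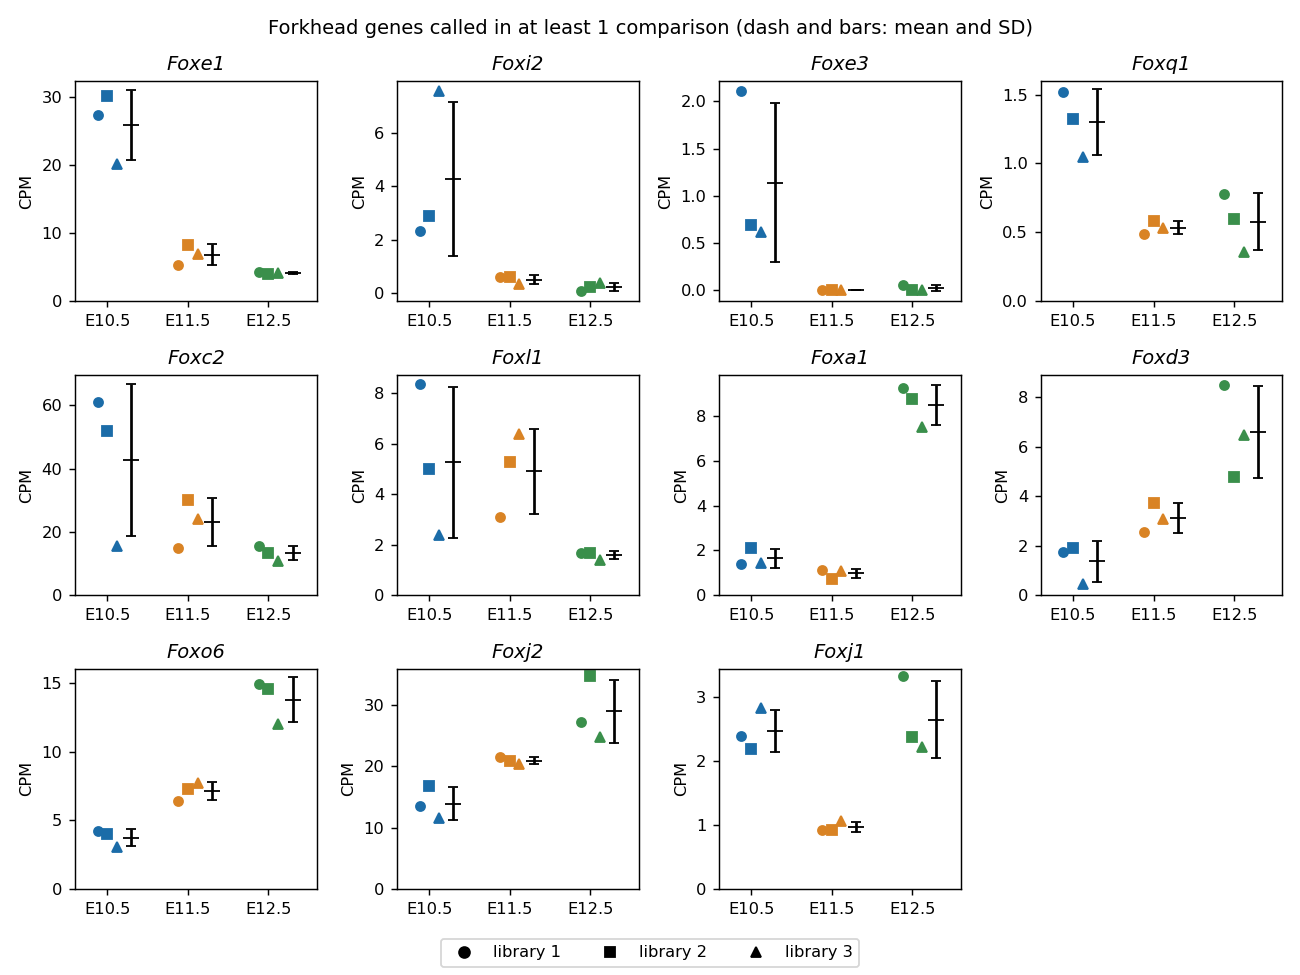
CPM of 11 forkhead genes called in at least 1 pairwise comparison in the 9 libraries, with the mean and SD of each stage at its right. Foxe1, Foxi2, Foxe3 and Foxq1 were highest at E10.5, Foxa1, Foxd3, Foxo6 and Foxj2 were highest at E12.5, and Foxj1 was lowest at E11.5.

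The mesenchymal genes formed a second group, in which several calls differed with and without E10.5 library 3. On chromosome 8, Foxf1, Foxc2 and Foxl1 lie within 28.0 and 9.0 kb of each other, all on the + strand. Foxc2, a factor of vessels and neural crest mesenchyme (chr8:121116171-121118895), had 60.9, 51.9 and 15.6 CPM at E10.5, 15.0, 30.2 and 24.1 at E11.5 and 15.5, 13.4 and 10.9 at E12.5. E10.5 library 3 lay just above the highest E12.5 library and inside the E11.5 range. Foxc2 fell by 1.69 ± 0.40 on the log2 scale from E10.5 to E12.5 (adjusted p = 0.0117), and by 2.08 without E10.5 library 3 (adjusted p = 4.02e-05). In the first interval it was not called with that library (−0.91 ± 0.46, adjusted p = 0.243) and was called without it (−1.30, adjusted p = 0.000193). The E12.5 vs. E10.5 call was lost without E12.5 library 2 or 3.

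Foxl1, a Hedgehog-responsive factor of mesenchyme under epithelia (chr8:121127940-121130644), had 8.38, 5.01 and 2.40 CPM at E10.5, 3.08, 5.29 and 6.37 at E11.5 and 1.67, 1.68 and 1.38 at E12.5. The first pair of stages overlapped, and all E12.5 libraries were below all others. It fell by 1.63 ± 0.30 on the log2 scale from E11.5 to E12.5 (adjusted p = 0.00637) and by 1.74 ± 0.43 from E10.5 to E12.5 (adjusted p = 0.0132). The latter call was lost without E10.5 library 1, E12.5 library 1 or E12.5 library 3. Foxf1 (chr8:121084386-121088144), the third of this cluster, did not follow. It had 29.9, 37.8 and 12.1 CPM at E10.5, 34.8, 37.2 and 43.3 at E11.5 and 32.5, 33.3 and 22.8 at E12.5, with fold changes of 0.51 ± 0.35, −0.37 ± 0.17 and 0.15 ± 0.34 (adjusted p = 0.381, 0.166 and 0.792).

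Foxc1, the chromosome 13 relative of Foxc2 with roles in skull and eye (chr13:31806633-31812476), had 111, 97.5 and 42.5 CPM at E10.5, 58.8, 74.1 and 60.7 at E11.5 and 56.7, 55.8 and 42.4 at E12.5. E10.5 libraries 1 and 2 were above all later ones and library 3 was not. It did not pass the test in any comparison (−0.70 ± 0.30, adjusted p = 0.120 from E10.5 to E12.5), and without E10.5 library 3 the same comparison gave −1.01 and an adjusted p of 0.00224. Within a library, Foxc1 had 0.85 and 0.877 times the RPKM of Foxc2 in E10.5 libraries 1 and 2 and 1.27 times in library 3, 1.14–1.83 times at E11.5 and 1.71–1.94 times at E12.5. The ratio of the pair therefore changed from below 1 in a pair of E10.5 libraries to above 1 in all later libraries, a description that was not tested.

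Foxf2, the palate and gut mesenchyme factor between Foxq1 and Foxc1 (64.8 and 175.2 kb away), had 36.8, 33.3 and 12.6 CPM at E10.5, 23.9, 30.3 and 28.0 at E11.5 and 34.0, 25.9 and 22.2 at E12.5. The stages overlapped, and the fold changes were −0.03 ± 0.35, 0.00 ± 0.17 and −0.01 ± 0.34. Foxf1 had 0.796–1.11, 1.20–1.51 and 0.937–1.26 times the RPKM of Foxf2 at the 3 stages. Foxl2, the factor of ovary, eyelid and cranial mesenchyme, had 38.6, 32.0 and 11 CPM, then 41.6, 43.2 and 45.1, then 46.5, 34.7 and 38.8, and did not pass the test (0.65 ± 0.37, adjusted p = 0.301 in the first interval).

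Of the d subfamily, Foxd1 and Foxd2, both known from facial and kidney mesenchyme, showed no called change. Foxd1 had 80.7, 58.2 and 24.3 CPM at E10.5, 33.2, 44.7 and 52.0 at E11.5 and 60.7, 48.4 and 56.1 at E12.5. Foxd2 had 40.0, 31.9 and 10.3, then 15.9, 23.9 and 26.9, then 23.3, 18.9 and 21.5. In both genes the E10.5 libraries spanned the later stages, and without library 3 the first interval gave −0.70 (adjusted p = 0.00393) for Foxd1 and −0.71 (adjusted p = 0.00534) for Foxd2, under the fold-change threshold. Per length the pair was close, with Foxd1 at 0.933–1.21, 0.957–1.07 and 1.31–1.34 times Foxd2 at the 3 stages.

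The facial mesenchyme markers had a summed CPM of 1130–1900, 2610–2780 and 2650–2900, and 2 of the 8, Msx1 (1.16 ± 0.19, adjusted p = 0.00808) and Pdgfra (1.27 ± 0.22, adjusted p = 0.01) rose in the first interval. Genes of the Hedgehog pathway, known to act upstream of Foxf1, Foxf2 and Foxl1, were counted beside them. Of 13 tested, 1 rose and 1 fell from E10.5 to E11.5 (median 0.15), 2 rose and 0 fell to E12.5 (median 0.10, with 0 falling by DESeq2 too and 2 negative values with an unadjusted p below 0.05), and 4 rose and 1 fell over both intervals (median 0.16). The ligand Shh fell (−2.56 ± 0.26, adjusted p = 0.00166) and then rose (1.33 ± 0.27, adjusted p = 0.0102), and was lower at E12.5 than at E10.5 (−1.22 ± 0.31, adjusted p = 0.0149). The co-receptor Boc rose in the first interval (1.16 ± 0.22, adjusted p = 0.0143), where the effector Gli2 had 0.58 ± 0.16 (adjusted p = 0.0540), and over both (1.58 ± 0.25). The target Hhip had 0.82 ± 0.22 in the second interval (adjusted p = 0.0372, under the threshold). Over both intervals Hhip (1.10 ± 0.29) and the co-receptor Gas1 (1.07 ± 0.19) rose as well.

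Foxa1, Foxd3, Foxo6 and Foxj2 rose to E12.5. Foxa1, a pioneer factor that opens chromatin in endoderm and epithelia (chr12:57540628-57546916, − strand), had 1.41, 2.13 and 1.42 CPM at E10.5, 1.13, 0.728 and 1.06 at E11.5 and 9.28, 8.77 and 7.52 at E12.5. In counts these were 24, 37 and 23, then 21, 15 and 20, then 167, 162 and 125. All E12.5 libraries were far above the others, and those of E10.5 were above those of E11.5. The first change did not pass the test (−0.78 ± 0.34, adjusted p = 0.174). It rose by 3.13 ± 0.24 on the log2 scale from E11.5 to E12.5 (8.78-fold, adjusted p = 4.57e-05) and by 2.36 ± 0.29 from E10.5 to E12.5 (5.13-fold, adjusted p = 0.000193), and it kept both calls in all 16 alternatives. Its 2 relatives were absent or nearly so at E12.5, Foxa2 at 0 counts and Foxa3 at 1, 0 and 0.

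The promoter of Foxa1 held a forkhead core (GTAAACA or, on the other strand, TGTTTAC), shown in capitals in 240 bases that precede the first exon of a Foxa1 transcript and lie in an intron of a longer one.
Foxa1 (chr12:57546122-57546361, − strand): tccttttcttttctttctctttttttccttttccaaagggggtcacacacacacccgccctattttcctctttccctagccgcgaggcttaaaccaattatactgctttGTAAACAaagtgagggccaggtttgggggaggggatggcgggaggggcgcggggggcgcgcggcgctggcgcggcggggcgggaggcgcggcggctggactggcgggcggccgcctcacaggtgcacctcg
The core begins 141 bases before the RefSeq start. Of 32851 RefSeq promoters, 3.17% held this motif on either strand in the 250 bases before the start, and Foxa1 was the only one of 33 forkhead promoters that did. The match is a description of letters and not a site of binding.

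Foxd3, which keeps neural crest cells and their glial and pigment lineages in a progenitor state (chr4:99656299-99658622, + strand), had 1.76, 1.90 and 0.431 CPM at E10.5, 2.54, 3.74 and 3.08 at E11.5 and 8.5, 4.76 and 6.49 at E12.5. The 3 stages did not overlap. It rose by 2.26 ± 0.45 on the log2 scale from E10.5 to E12.5 (adjusted p = 0.00474), by 1.84 without E10.5 library 3 (adjusted p = 0.00237), and by 1.08 ± 0.26 from E11.5 to E12.5 (adjusted p = 0.0217), where the call was lost without E11.5 library 1 or 3 or E12.5 library 1. In the first interval the change of 1.16 ± 0.46 had an adjusted p of 0.145. With 30, 33 and 7 counts at E10.5, Foxd3 passed the count filter in both comparisons with that stage through the later libraries. With the GC trend removed the first interval was called (1.36, adjusted p = 0.0224) and the second was not (0.74, under the fold-change threshold). The stretch before its start, again with CG in capitals, held 21 CG in 250 bases, the number also found in the 240 bases of Foxa1.
Foxd3 (chr4:99656049-99656298, + strand): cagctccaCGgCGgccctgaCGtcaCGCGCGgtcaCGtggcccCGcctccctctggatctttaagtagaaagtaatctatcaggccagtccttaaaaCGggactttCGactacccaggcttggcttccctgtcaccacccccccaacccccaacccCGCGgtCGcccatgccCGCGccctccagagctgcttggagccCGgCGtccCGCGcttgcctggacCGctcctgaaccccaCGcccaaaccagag
Of 7 neural crest and glia markers, Sox10 rose in the first interval (1.35 ± 0.20, adjusted p = 0.00554) and 3 of the 7 in the second, among them Sox10 (1.04 ± 0.16, adjusted p = 0.00252) and the pigment gene Dct (2.07 ± 0.50). Dct had −2.46 ± 0.74 in the first interval (adjusted p = 0.0687), and over both intervals 3 rose and the pigment cell regulator Mitf fell (−1.12 ± 0.33, adjusted p = 0.0315). Their summed CPM was 114–137, 159–169 and 152–189. Their part in the rise of Foxd3 was not tested.

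Foxo6, the o subfamily member known from brain and craniofacial growth (chr4:120267079-120287349, − strand), had 4.22, 3.97 and 3.02 CPM at E10.5, 6.42, 7.28 and 7.75 at E11.5 and 14.9, 14.6 and 12 at E12.5. The stages did not overlap. It rose by 1.88 ± 0.24 on the log2 scale from E10.5 to E12.5 (3.69-fold, adjusted p = 0.000298) in all 16 alternatives. Each interval on its own passed the adjusted p and fell just short of the fold-change threshold (0.91 ± 0.20, adjusted p = 0.0262, and 0.96 ± 0.17, adjusted p = 0.00443). Foxo6 has an exon GC content of 69.1%, and with the GC trend removed the first interval was called (1.08, adjusted p = 0.00778), the second no longer passed the adjusted p (0.53, adjusted p = 0.0852), and the change over both was 1.56.

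The other o genes, which insulin signalling keeps out of the nucleus, moved less. Foxo3 had 49.3, 49.4 and 38.8 CPM, then 65.9, 55.8 and 62.5, then 70.9, 90.7 and 77.2, without overlap of the stages, and passed the adjusted p from E10.5 to E12.5 below the fold-change threshold (0.79 ± 0.18, adjusted p = 0.00933). Foxo1 had 23.7, 27.2 and 32.4, then 35.9, 31.8 and 33.0, then 29.1, 47.8 and 38.1 CPM (0.46 ± 0.22, adjusted p = 0.149 from E10.5 to E12.5). Foxo4 was level at 60.6–78.5, 67.6–85.0 and 64.2–78.5 CPM (0.01 ± 0.18). The RPKM of Foxo4 was 3.22–3.45 times that of Foxo3 at E10.5, 2.23–3.31 times at E11.5 and 1.81–2.20 times at E12.5.

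Of 18 tested genes linked to Foxo factors in stress and cell cycle control, 0 were called from E10.5 to E11.5 by edgeR or DESeq2 (median 0.29, with an unadjusted p below 0.05 for 9 in the upward and 2 in the downward direction), 2 rose to E12.5 (median 0.05) and 3 rose over both intervals (median 0.28), and 0 fell in any comparison by either tool (unadjusted p below 0.05 for 2, 2 and 1 with negative values). The repressor Bcl6 had 0.97 ± 0.29 (adjusted p = 0.0656), 1.43 ± 0.28 (adjusted p = 0.00868) and 2.41 ± 0.36 (adjusted p = 0.000751) in the first interval, the second and over both. The cell cycle inhibitor Cdkn1a had −0.80 ± 0.21 (adjusted p = 0.0464) and then rose by 1.04 ± 0.17 (adjusted p = 0.00297), and Ccng2, an atypical cyclin, had 0.83 ± 0.11 (adjusted p = 0.00372) in the first interval. Txnip, a regulator of glucose uptake, had 0.84 ± 0.13 in the second interval and rose by 1.16 ± 0.19 (adjusted p = 0.00122) over both, as did the PI3K inhibitor Pik3ip1 (1.12 ± 0.26, adjusted p = 0.00953).

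Foxj2, a widely expressed activator (chr6:122819914-122845366, + strand), had 13.5, 16.7 and 11.5 CPM at E10.5, 21.5, 20.9 and 20.4 at E11.5 and 27.2, 34.7 and 24.7 at E12.5. The stages did not overlap. It rose by 1.05 ± 0.22 on the log2 scale from E10.5 to E12.5 (adjusted p = 0.00584). It is close to the fold-change threshold, and without E10.5 library 3 the value was 0.93 (adjusted p = 0.00757), without a call, as was the case without E12.5 library 2 and with the GC trend removed. Its relative Foxj3 stayed at 54.7–66.5, 66.2–75.1 and 57.1–78.2 CPM with no called change (0.21 ± 0.12, −0.08 ± 0.14 and 0.14 ± 0.18).

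Foxj1 and Foxp2 turned at E11.5. To compare the 2 intervals, the difference between the log2 fold change of E12.5 vs. E11.5 and that of E11.5 vs. E10.5 was tested on all 9 libraries. It passed an adjusted p of 0.05 for 3 of 32 forkhead genes, against 1.18% of 16375 genes. Without E10.5 library 3 it passed for 5, where 1.16% of 16880 genes passed with positive and 1.43% with negative values. Foxj1, the master factor of motile cilia (chr11:116330704-116335399, − strand), had 2.40, 2.19 and 2.83 CPM at E10.5, 0.918, 0.922 and 1.06 at E11.5 and 3.33, 2.38 and 2.22 at E12.5. The E11.5 libraries were below all others, and the outer stages overlapped. It fell by 1.37 ± 0.27 on the log2 scale (adjusted p = 0.0169) and rose by 1.45 ± 0.30 (adjusted p = 0.0109), a difference of 2.83 ± 0.54 (adjusted p = 0.0296), and over both intervals the change was 0.10 ± 0.31. The call of the difference was lost when any E11.5 library or E12.5 library 1 was left out and with the GC trend removed (2.59, adjusted p = 0.0552), the first fall when any E11.5 library was left out, and the rise without E11.5 library 2 or E12.5 library 1.

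Genes of motile cilia that Foxj1 is known to activate were counted beside it. Of 11 tested, 0 were called from E10.5 to E11.5 by edgeR or DESeq2 (2 had negative values with an unadjusted p below 0.05), 1 rose from E11.5 to E12.5, and 1 of 12 rose from E10.5 to E12.5, with medians of −0.22, −0.12 and −0.18. The gene that rose was Tekt2, a tektin of the axoneme (0.93 ± 0.41 with an adjusted p of 0.189 in the first interval, 1.61 ± 0.28 with 0.00464 in the second, and 2.55 ± 0.42 with 0.00140 over both). The radial spoke gene Rsph1 had −0.63 ± 0.39 and 0.93 ± 0.43 in the 2 intervals (adjusted p = 0.331 and 0.172), and the dynein gene Dnaic1 −0.62 ± 0.42 in the first (adjusted p = 0.371). The regulator Rfx3 had −0.52 ± 0.15 in the second interval (adjusted p = 0.0509) and −0.96 ± 0.23 over both (adjusted p = 0.0105), and Ccdc40, needed to assemble dynein arms, −0.73 ± 0.22 over both (adjusted p = 0.0369).

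Foxp2, the factor tied to speech and to brain and lung development (chr6:14901349-15441977, + strand), showed the opposite course. It had 62.5, 45.6 and 33.6 CPM at E10.5, 87.0, 94.5 and 83.8 at E11.5 and 44.2, 59.5 and 49.7 at E12.5. All E11.5 libraries were above all others, and the outer stages overlapped. The fold changes of 0.88 ± 0.21 (adjusted p = 0.0308) and −0.79 ± 0.13 (adjusted p = 0.00418) were both under the threshold of 1, and their difference was −1.66 ± 0.34 (adjusted p = 0.0346). That call was kept in 8 of 15 alternatives and was lost with the GC trend removed (−1.54, adjusted p = 0.0889), without any 1 of the E11.5 libraries, and without E10.5 library 2 or E12.5 library 1 or 3. Foxp2 is GC-poor for this family (42.6%).

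Within the p subfamily, Foxp1 had 109, 91.9 and 108 CPM at E10.5, 126, 137 and 131 at E11.5 and 89.9, 106 and 76.1 at E12.5. It was highest at E11.5 in every library, and the second change passed the adjusted p only (−0.52 ± 0.14, adjusted p = 0.0333), with a difference of intervals of −0.84 ± 0.25 (adjusted p = 0.154). Foxp4 had 310, 309 and 169 CPM, then 183, 234 and 211, then 180, 155 and 127. It passed the adjusted p from E10.5 to E12.5 (−0.77 ± 0.25, adjusted p = 0.0434), and without E10.5 library 3 the fold change was −1.01 (adjusted p = 0.00238). Foxp4 had 4.39–9.38 times the RPKM of Foxp1 at E10.5, with the lowest ratio in library 3, 4.07–4.79 times at E11.5 and 4.06–5.59 times at E12.5. Foxp3, the regulatory T cell factor, had 7, 9 and 0 counts, then 0, 4 and 3, then 5, 2 and 0, with 31.5% of its exon sequence shared with other genes, and the T cell markers Cd3e and Il2ra were at 0 in all 9 libraries.

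Foxa1 showed the third difference between intervals, 3.92 ± 0.52 on the log2 scale (adjusted p = 0.00399), and kept it in all 15 alternatives. Foxe1 was at 1.23 ± 0.38 (adjusted p = 0.175), so its larger fall in the first interval was not shown to differ from that in the second. Without E10.5 library 3 this difference passed the test.

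The widely expressed genes changed little. Foxm1, which drives genes of mitosis, had 166, 182 and 121 CPM at E10.5, 148, 150 and 155 at E11.5 and 110, 116 and 75.8 at E12.5. All E12.5 libraries were below all others, and the second change passed the adjusted p under the fold-change threshold (−0.58 ± 0.16, adjusted p = 0.0386). Foxk2 had 188–204, 188–193 and 130–171 CPM (−0.38 ± 0.17, adjusted p = 0.131 from E10.5 to E12.5). Foxk1, its close relative, had 56.8–76.1, 73.0–79.4 and 44.9–79.6 CPM, and Foxk2 had 3.10–4.76 times its RPKM over the 9 libraries. Foxn3, a checkpoint repressor, had 80.6, 72.6 and 81.0 CPM, then 133, 118 and 126, then 118, 137 and 94.9, and passed the adjusted p in the first interval below the threshold (0.67 ± 0.10, adjusted p = 0.00655). Foxn2 stayed at 29.5–37.8, 27.8–29.7 and 22.7–28.5 CPM, and Foxn1, the thymus and skin factor, had at most 13 counts in a library.

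Mitosis genes linked to Foxm1 were counted in the same way. Of 14 tested, 0 were called by edgeR or DESeq2 in each of the 3 comparisons (3, 8 and 8 had negative values with an unadjusted p below 0.05, and 0, 1 and 0 positive ones), with medians of −0.16, −0.32 and −0.50 beside −0.03, 0.02 and −0.01 over all genes. The largest differences in E12.5 vs. E10.5 were those of the kinase Nek2 (−0.94 ± 0.18, adjusted p = 0.00395), the checkpoint kinase Bub1 (−0.93 ± 0.23, adjusted p = 0.0152) and the cyclin Ccnb1 (−0.88 ± 0.21, adjusted p = 0.0108), all under the threshold. In the first interval they were those of Nek2 (−0.47 ± 0.10), Ccnb1 (−0.43 ± 0.18) and Cdk1 (−0.41 ± 0.15), and in the second those of the kinesin Kif20a (−0.67 ± 0.13), Bub1 (−0.58 ± 0.12) and the centromere protein gene Cenpf (−0.55 ± 0.13). Their summed CPM was 2250–2560, 2020–2190 and 1640–1860.

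Surface epithelium, the tissue in which Foxa1, Foxe1 and Foxi3 are known to act, had a summed CPM of its 9 markers of 424–734, 470–497 and 698–776. The basal keratins Krt5 (2.13 ± 0.17, adjusted p = 5.77e-05) and Krt14 (2.33 ± 0.19, adjusted p = 5.76e-05) rose from E11.5 to E12.5, and the other 7 were not called in that interval. From E10.5 to E11.5, 1 rose (Krt5, 4.03 ± 0.26, adjusted p = 0.000723) and 1 fell (Krt18, −1.03 ± 0.22, adjusted p = 0.0213). Endothelial and mural markers summed to 285–300 and 252–316 CPM at the later stages. Of the 8 tested, Cspg4 rose in the first interval (1.42 ± 0.32, adjusted p = 0.0268) and in the second (1.01 ± 0.17, adjusted p = 0.00418, where 0 rose with DESeq2). Over both intervals Cspg4 (2.45 ± 0.33) and Rgs5 (1.17 ± 0.27) rose, and 0 fell. Markers of cartilage, bone and muscle had 570–988, 524–613 and 552–742 CPM in sum, with Runx2 (4.49 ± 0.44), Sp7 (4.10 ± 0.29) and Acan (5.83 ± 0.41) upregulated from E10.5 to E12.5 and Col2a1 at −0.86 ± 0.24, those of red blood cells 2820–3800, 4640–5050 and 4380–5720, and those of immune cells 17.0–22, 20.1–24.2 and 20.9–25.2. The part of these cell types in the forkhead values was not tested.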

How the data were processed

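Total RNA of the lambdoidal junction was sequenced in 9 libraries, 3 per stage, each from pooled embryos. According to the methods and the submitters' processing notes, the authors mapped reads to GRCm38 (mm10) with HISAT2 2.0.5 and deposited raw counts per gene from featureCounts. Whether strand was used in counting is not given in the sources used here. Deposited FPKM values, which the authors made from counts and gene length, were not used. Neither were the deposited stage means, log2 fold changes and p-values of the authors' own comparisons. Total counts of 16581009 to 20836804 per library limit precision for genes with few counts, and the 95% interval and the limit of 3 counts cover counting error only.

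Stages were taken from the sample labels. Each pair was compared on its 6 libraries with edgeR 4.0.16 (filterByExpr, TMM, quasi-likelihood test, Benjamini-Hochberg over all genes tested). A call needed an adjusted p of at most 0.05 and a log2 fold change of at least 1 in size, and the difference between intervals was a contrast over all 9 libraries with the adjusted p alone. The SE was derived from the F statistic. Levels between genes were compared as RPKM from the counts and the deposited gene length. Exons, overlaps and GC content came from GENCODE vM21, in which 54495 gene IDs were found, 98.33% of them with the same coordinates. Values were given for members called in a comparison, their subfamily and cluster relatives, and the 5 highest per length, and other members as ranges. Alternatives covered normalization, filters, DESeq2 1.42.0, glmTreat, 1 estimate of spread for the 9 libraries, a replicate block, a lowess GC trend (span 0.3) and each library left out. The members, gene lists and markers were chosen with earlier results of these data known. A member and a few genes of the other lists are counted but not reported here.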

Additional observations from a re-analysis of the deposited data

Results flagged for a closer look

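The log2 fold change of 3 forkhead genes differed between the 2 intervals by the test of the difference itself. The difference of E12.5 vs. E11.5 minus E11.5 vs. E10.5 was 3.92 for Foxa1, with all E12.5 libraries above all others. It was 2.83 for Foxj1, which was lowest at E11.5 in every library. It was −1.66 for Foxp2, which was highest at E11.5 in every library. With only 3 libraries per stage, no stage was examined for a single deviating library by a formal test.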

How the results depend on the processing

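The count of forkhead genes called in E11.5 vs. E10.5 was 6, and it was 3 when at least 10 counts in every library were required, which takes Foxe3, Foxi2 and Foxq1 out of the test. It was 2 with glmTreat, which tests against the fold-change threshold, and 2 to 7 when 1 library was left out, with 2 without E11.5 library 1 or 3, 3 without E11.5 library 2 and 7 without E10.5 library 1 or 3. In E12.5 vs. E11.5 the count of 4 became 9 with no fold-change threshold and 1 with glmTreat, and ranged from 2 (without E12.5 library 1) to 6 (without E12.5 library 3). In E12.5 vs. E10.5 the count of 9 ranged from 6 to 13 over all alternatives. The shares over all genes moved too. In E11.5 vs. E10.5, 0.713% rose and 0.643% fell with glmTreat, and 2.82% and 1.99% with at least 10 counts required. In E12.5 vs. E11.5, 0.803% rose and 0.108% fell with glmTreat. Of the 3 genes that differed between intervals, 1 (Foxa1) remained with the GC trend removed, and 1 to 5 when 1 library was left out, with 1 without any E11.5 library or E12.5 library 1 and 5 without E10.5 library 3. The cause was not tested.

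Fold changes near 0 in E11.5 vs. E10.5 turned sign. That of Foxf2 (−0.03) was 0.09 with the replicate block, 0.09 with the GC trend removed, 0.14 with both, and −0.38 to 0.24 with 1 library left out. That of Foxl1 (−0.12) was 0.01 with the GC trend removed and the replicate block, and −0.46 to 0.38 with 1 library left out. Foxd1 ranged from −0.70 to 0.05 and Foxd2 from −0.71 to 0.05 in the same way, with the lowest value without E10.5 library 3 and the highest without E10.5 library 1. Of 638 single values under alternatives, 569 kept their direction and side of the threshold, 47 lost the call, 11 gained it and 11 turned sign. This tally leaves out glmTreat and the setting with no fold-change threshold. It covers 43 pairs of gene and comparison, some of them not called in the main test, for which staying uncalled counted as kept. It is therefore not the share of calls that held. Same-numbered libraries did not deviate together across all stages (correlations −0.15 to 0.22, against −0.22 to 0.22 for different numbers), so the numbers were not taken as pairs. Between E10.5 and E12.5 the same numbers had 0.18, 0.07 and 0.22, and different numbers −0.22 to 0.15. With the replicate block the counts were 5, 5, 9 and 3, and not every library correlated best with its own number. At this depth 12 members had too few counts for the main test, and Foxi1 had none.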
